A study of Mus musculus with 4 samples.

Results

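Wide hypoxia-only peaks are stretches of open chromatin that the peak caller assigned to hypoxia-cultured cells alone, that are at least 1000 bp wide and that directly abut a peak assigned to both oxygen conditions. They were chosen by 3 features of the deposited peak table: the group assignment in the peak's name, its width, and the absence of any base between it and a peak shared by both groups. Of 128055 peaks in the table, 8754 were hypoxia-only and 330 of these met the rule. Another 8195 hypoxia-only peaks touched a shared peak but were narrower than 1000 bp, and 12 wide ones touched no shared peak. Each of the 330 therefore continues an accessible stretch that was present under both conditions, and 558 shared peaks touched at least 1 of them.

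The chromatin came from mesenchymal stem cells (MSCs) taken from the bones of wild-type male C57BL/6N mice aged 3 to 5 months, with no transgene, deletion or drug in either group. By the study's methods all cells were kept at 2% O2 until a sort for CD45-/Ter-119-/Sca-1+/CD140a+ cells, after which the hypoxia group (2 libraries) went back to 2% O2 and the normoxia group (2 libraries) was moved to 21% O2 for about a week. The sample labels give 5% CO2 for both, a passage on day 5 and the sort on day 12, and do not say when the oxygen level changed. Accessibility was measured by ATAC-seq on 50000 cells per sample, an assay that tags accessible DNA with adapters carried by the Tn5 transposase. These are cells expanded in flasks and not cells measured in the bone, and whether a library joins several mice is not given in the sources used here. The study describes its replicates as biologically independent experiments.

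As background, ATAC-seq signal is usually concentrated in narrow elements, promoters and enhancers, where nucleosomes are displaced. Transcribing RNA polymerase also disrupts nucleosomes, so strongly transcribed genes can carry a broad, low plateau of accessibility over their bodies, and polymerase runs on past the annotated 3′ end before it is released. Immediate-early genes such as Fos, Jun and Egr1 are short genes that serum, stress or attachment switch on within minutes. Bone-derived MSCs form bone, cartilage and fat cells and secrete a collagen-rich matrix.

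Windows of 300 bases from the middle of 4 of the peaks show what kind of DNA they hold. The first and second come from the peaks past the ends of Ccn1 and Jun, which had the highest hypoxia signal per kb. The third comes from the intronic middle of the widest peak, in Baiap2, and the fourth from a peak in an intron of Zswim4 whose middle matched the hypoxia response core. All are the plus strand of mm10 (GRCm38), 5′ to 3′, from the RefSeq assembly of that build, and capitals mark matches to 1 of the motifs searched (AP-1, hypoxia response core, RUNX core).
Ccn1 (chr3:145643001-145643300): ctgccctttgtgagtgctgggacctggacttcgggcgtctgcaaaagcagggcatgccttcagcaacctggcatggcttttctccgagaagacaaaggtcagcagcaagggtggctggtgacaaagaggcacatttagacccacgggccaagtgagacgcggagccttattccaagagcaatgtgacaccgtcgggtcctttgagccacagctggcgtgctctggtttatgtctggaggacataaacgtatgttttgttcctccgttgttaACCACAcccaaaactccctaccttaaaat
Jun (chr4:95046201-95046500): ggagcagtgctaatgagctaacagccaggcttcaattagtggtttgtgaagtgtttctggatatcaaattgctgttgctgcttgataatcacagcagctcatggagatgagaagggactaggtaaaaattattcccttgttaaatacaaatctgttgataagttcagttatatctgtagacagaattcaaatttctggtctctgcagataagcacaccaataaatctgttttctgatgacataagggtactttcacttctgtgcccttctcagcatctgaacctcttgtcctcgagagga
Baiap2 (chr11:119964301-119964600): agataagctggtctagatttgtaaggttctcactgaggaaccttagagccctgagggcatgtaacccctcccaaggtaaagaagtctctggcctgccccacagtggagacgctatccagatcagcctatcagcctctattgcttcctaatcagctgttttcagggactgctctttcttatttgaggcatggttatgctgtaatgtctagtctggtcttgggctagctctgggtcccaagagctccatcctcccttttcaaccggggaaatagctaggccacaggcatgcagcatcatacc
Zswim4 (chr8:84216101-84216400): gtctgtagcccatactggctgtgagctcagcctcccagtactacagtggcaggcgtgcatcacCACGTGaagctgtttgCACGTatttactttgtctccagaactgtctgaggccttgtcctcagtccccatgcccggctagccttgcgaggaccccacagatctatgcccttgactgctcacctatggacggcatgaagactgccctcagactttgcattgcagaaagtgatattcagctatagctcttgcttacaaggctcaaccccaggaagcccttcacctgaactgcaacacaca
The Ccn1 window held 1 RUNX core on the minus strand. The Jun and Baiap2 windows held no match to any of the motifs. The Zswim4 window held 3 matches to the hypoxia response core, of which a pair overlap because CACGTG reads as ACGTG on both strands.

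The motifs were counted on both strands in the central 300 bases of every nuclear peak. For a peak under 300 bp the window was centred on it and ran beyond its edges. The AP-1 site (TGACTCA or its reverse complement TGAGTCA), bound by FOS and JUN proteins, lay in 14 of the 330 wide hypoxia-only peaks (4.24%). The share was 15.2% of all nuclear peaks, 11.1% of shared peaks of at least 1000 bp and 9.50% of the shared peaks they touch. It was also low, at 6.37%, in the windows of narrower hypoxia-only peaks touching a shared peak, so a low share is not particular to the wide ones. The narrower peaks had a median width of 200 bp, so many of their windows take in adjoining sequence. Of the wide peaks, 11 of the 206 inside genes and 2 of the 85 past gene ends held the site. The core of the hypoxia response element (ACGTG), bound by HIF factors, lay in 15.2% of them and 14.9% of all nuclear peaks. The RUNX core (TGTGGT), bound by the osteogenic factor RUNX2 among others, lay in 18.8% against 26.3%. In the windows of the narrower touching hypoxia-only peaks the RUNX core share was 21.9%, and in those of the touched shared peaks 23.8%. Median GC content was 43.7%, against 45.9% over all nuclear peaks, and the median share of repeat-masked bases was 20.7% against 13.8%. Peaks past gene ends had the highest repeat share, with a median of 26.8%.

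The 330 peaks ranged from 1000 to 10300 bp with a median of 1300 bp. Of these, 267 were under 2000 bp wide, 57 were at least 2000 and under 5000 bp, and 6 were at least 5000 bp. A shared peak lay on both sides of 260 peaks (78.8%) and on 1 side of the other 70. Chains of abutting peaks that held at least 1 of them numbered 264, with a median span of 7000 bp and a longest of 73800 bp. In 43 chains there were 2 or more, up to 6, so that 109 of the 330 shared a chain and were not separate observations.

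Most lay within genes, and a larger share than of other peaks lay past gene ends. Placed by midpoint against protein-coding genes of GENCODE M21, 206 (62.4%) lay inside a gene body, 85 (25.8%) within 10 kb past a gene's 3′ end, 8 (2.42%) within 10 kb upstream of a gene and 31 (9.39%) elsewhere. Over all 128055 peaks the same shares were 53.9%, 6.36%, 6.95% and 32.7%. The share past gene ends was 8.90% among narrower hypoxia-only peaks that touch a shared peak and 6.53% among shared peaks of at least 1000 bp. It was 21.3% among the 558 shared peaks touched. Counting also those inside one gene and past the end of another, 116 peaks (35.2%) lay within 10 kb past some gene end, against 12.9% of all peaks. These shares are descriptions with no test, because neighbouring peaks are not independent. Promoter sequence was thinly represented: 28 peaks (8.48%) lay within 1 kb of a coding start site, against 13.8% of all peaks, and 12 covered one.

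**Figure D1:**
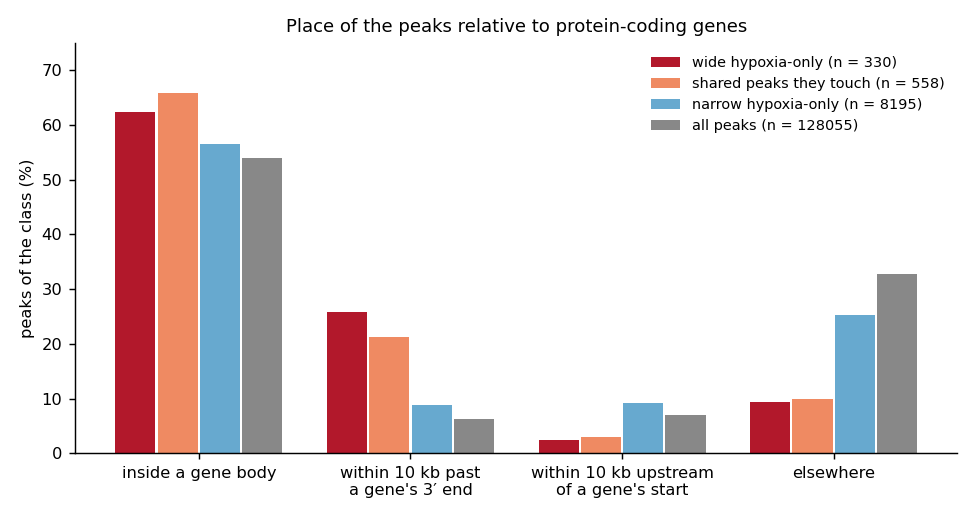
Share of peaks (%) inside gene bodies, within 10 kb past a 3′ end, within 10 kb upstream of a start and elsewhere, for the 330 wide hypoxia-only peaks, the 558 shared peaks they touch, 8195 narrow hypoxia-only peaks and all 128055 peaks. Past gene ends the wide hypoxia-only peaks stand at 25.8% and all peaks at 6.36%.

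Values are the deposited signal, in which reads are scaled to a fixed library total and not divided by peak width. Levels are therefore compared between peaks per kb. The wide hypoxia-only peaks had a median of 10.9 per kb in hypoxia (range 4.35 to 99.8) and 3.13 in normoxia (range 0.729 to 14.1). The shared peaks touching each of them, pooled by width, had medians over the 330 of 19.0 and 11.1. Taken singly, the 558 touched shared peaks had lower medians, of 14.6 and 9.16. By the pooled value, 237 of the 330 were less dense in hypoxia than the shared peaks they touched. Normoxia signal was a median of 0.267 of hypoxia signal (range 0.117 to 0.472), which on the log2(value + 1) scale is a median change of -1.67. All peaks had a median of -0.44 and the touching shared peaks -0.69. Hypoxia and normoxia values chose these peaks, so the difference is a description and has no test.

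**Figure D2:**
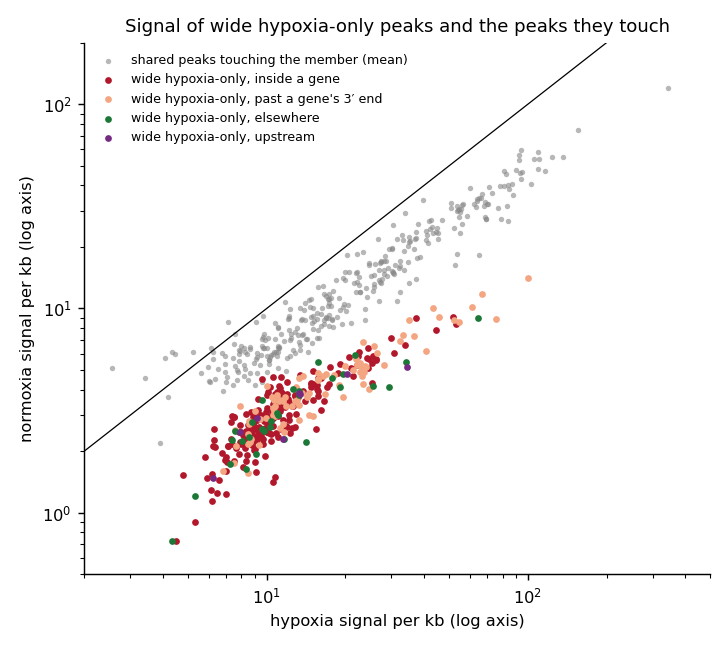
Hypoxia against normoxia signal per kb (both axes logarithmic) for the 330 wide hypoxia-only peaks, coloured by place. Grey points are the shared peaks that touch each of them, pooled by width. The line marks equal signal. All coloured points lie below the line, at a median normoxia to hypoxia ratio of 0.267.

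The libraries differed in more than these peaks. Library totals were 26680936 to 29965523 reads, and nuclear peaks held 49.2% and 53.2% of reads in hypoxia and 31.0% and 35.2% in normoxia. Mitochondrial peaks held 7.77% and 9.13% in hypoxia, against 1.50% and 2.34% in normoxia. The wide hypoxia-only peaks held 0.0810% and 0.0920% of reads in hypoxia and 0.0210% and 0.0199% in normoxia. Oxygen level and library quality cannot be told apart in this design. With RLE size factors, which bring the median of all peaks to -0.0040, the median change of the wide hypoxia-only peaks was -1.27 and that of the touching shared peaks -0.25. Promoter signal summed over MSC markers, of which 14 of 15 had a promoter peak (Lepr had none), was 2457 and 2575 in hypoxia, against 1352 and 1552 in normoxia. Summed blood markers (6 of 13 with a peak, Ptprc at 0) were at 218 and 204 against 150 and 161, and endothelial markers (5 of 8 with a peak) at 316 and 315 against 180 and 211. Their part in the results was not tested.

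Depth limits single peaks. The median wide hypoxia-only peak rested on 40 and 49 reads under hypoxia but 12 and 12.5 under normoxia, and 254 and 245 of the 330 held fewer than 20 reads in each normoxia library. Both normoxia libraries were below both hypoxia libraries in 329 peaks (background over all peaks 59.5%). The exception was a peak inside Rtn4 at 1.42 and 14.3 in hypoxia, against 1.12 and 2.34 in normoxia, where the hypoxia libraries differ by 10.1-fold. In 33 peaks the hypoxia libraries were more than 2-fold apart. By limma with RLE factors and an FDR under 0.01, 174 (52.7%) were called lower in normoxia and 0 higher, where 0 had an unadjusted p under 0.05 in that direction. The background was 4.57% of all peaks lower and 1.77% higher, and since the rule used this contrast nothing is read from the excess. Without hypoxia replicate 1 or 2 limma called 0 of the 330, of which 280 and 229 had an unadjusted p under 0.05. Signal was unevenly spread, with the 10 strongest peaks holding 21.1% and the 50 strongest 50.4% of their summed hypoxia signal.

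Of the 10 with the most hypoxia signal per kb, 7 were past a gene's 3′ end, 2 inside a gene and 1 elsewhere, and of the densest 50, 26 were past an end. The median hypoxia signal was 14.3 per kb for those past ends and 10.2 for those inside genes. The 85 peaks past ends belonged to 75 genes, and their midpoints lay 96 to 9176 bp past the annotated end with a median of 3817 bp. These genes had a median length of 20629 bp, and 37 were shorter than 20 kb.

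Ccn1, which encodes a secreted matricellular protein induced by serum and mechanical load, had the densest peak, of 1100 bp at chr3:145642601-145643700, whose midpoint lay 3826 bp past the gene end. Its signal was 104 and 116 in hypoxia, against 12.0 and 19.0 in normoxia. The groups did not overlap, as in 329 of the 330 peaks, which this contrast chose (59.5% over all peaks). Of the shared peaks on either side, that of 17000 bp, which covers the start of Ccn1, was at 989 and 1087 in hypoxia and 672 and 733 in normoxia, and the farther one of 2500 bp was at 120 and 152 against 51.3 and 60.4.

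The AP-1 genes Jun and Fos had the same layout. The peak past Jun (1700 bp, midpoint 2684 bp past the end) was at 130 and 128 in hypoxia, against 14.2 and 16.0 in normoxia, a log2 change of -3.01 and the lowest of all 330. The peak past Fos (2300 bp, midpoint 4377 bp past the end) was at 118 and 132 against 21.0 and 18.7, a log2 change of -2.59. In both, replicates were close and groups far apart, though this contrast chose the peaks. The shared peaks that run from upstream of each start across the whole gene were at 905 and 938 against 434 and 541 for Jun, and at 886 and 939 against 445 and 463 for Fos. On the far side the shared peaks, both of 800 bp, were weak, at 8.85 and 11.9 against 6.37 and 8.34 for Jun and 21.9 and 19.4 against 10.1 and 7.34 for Fos. Per kb, the Jun region thus read 120 over the gene and 75.8 in the hypoxia-only peak in hypoxia, and 63.3 and 8.90 in normoxia.

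Klf2 and Klf6, zinc finger factors of the immediate-early class, and Egr1 and Ier2 followed. Klf2 had a pair of peaks past its end. The nearer, of 1400 bp, was at 89.2 and 98.3 in hypoxia, against 15.4 and 17.7 in normoxia. The farther, of 2500 bp, was at 51.3 and 59.2 against 15.4 and 11.0. Signal per kb fell along this stretch from 66.9 to 22.1 in hypoxia. The Klf6 peak (1900 bp) was at 64.4 and 74.5 against 16.1 and 11.7, the Egr1 peak (2800 bp) at 136 and 157 against 24.0 and 25.4, and the Ier2 peak (1200 bp) at 55.2 and 49.0 against 9.74 and 14.3. None of these groups overlapped, which holds for 329 of the 330 peaks by their selection (59.5% over all peaks).

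The widest peak past an end, of 8200 bp, crossed the end of Lbh, a transcriptional cofactor gene, and was at 90.6 and 115 against 31.9 and 22.7. It belonged to a chain of 35600 bp with 6 wide hypoxia-only peaks, 4 of them inside Lbh. Other peaks past ends, named after their values were seen, lay beside Anxa1, which encodes a calcium-dependent phospholipid-binding protein (88.8 and 93.8 against 19.1 and 17.0), and beside Pdlim5, which encodes a PDZ and LIM domain protein of the actin cytoskeleton (7700 bp, 309 and 315 against 44.2 and 51.1). The Pdlim5 peak carried the most signal of any past an end.

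**Figure D3:**
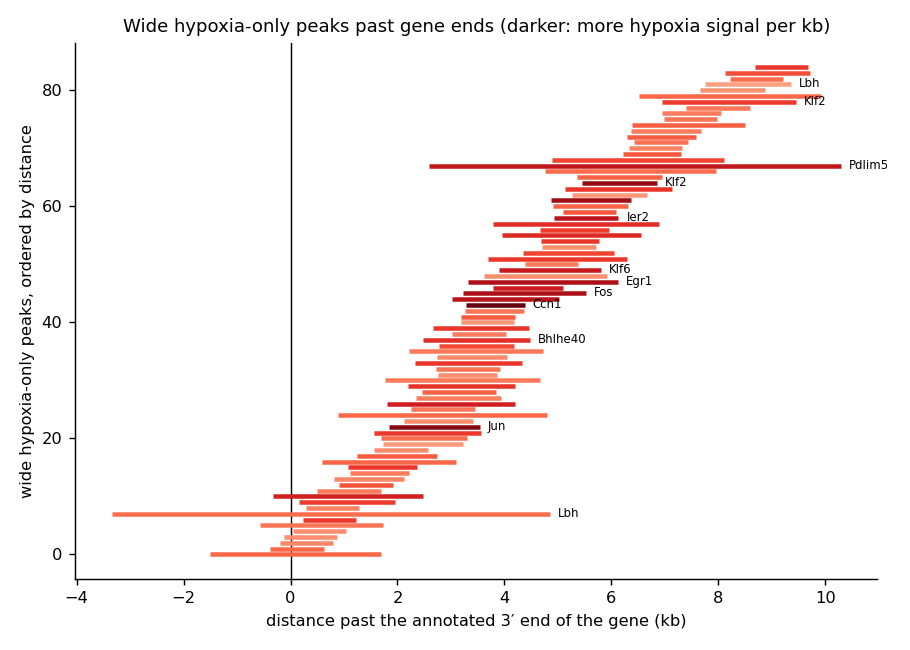
Position of the 85 wide hypoxia-only peaks assigned past a gene's 3′ end, drawn as bars from start to end in kb past the annotated end (0) and ordered by distance, with darker bars for more hypoxia signal per kb. Midpoints lie 96 to 9176 bp past the end, and the bars of Ccn1, Jun, Fos and Egr1 are among the darkest.

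Many of these peaks extend a chain that starts at the gene itself. In 59 of the 85, the chain of abutting peaks covered the gene's annotated 3′ end, and in 30 it covered the whole gene. The shared peak directly touching covered the 3′ end in 36 and the whole gene in 12. Among the 206 inside genes, the chain covered the gene's start in 45, its end in 44 and the whole gene in 12.

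**Figure D4:**
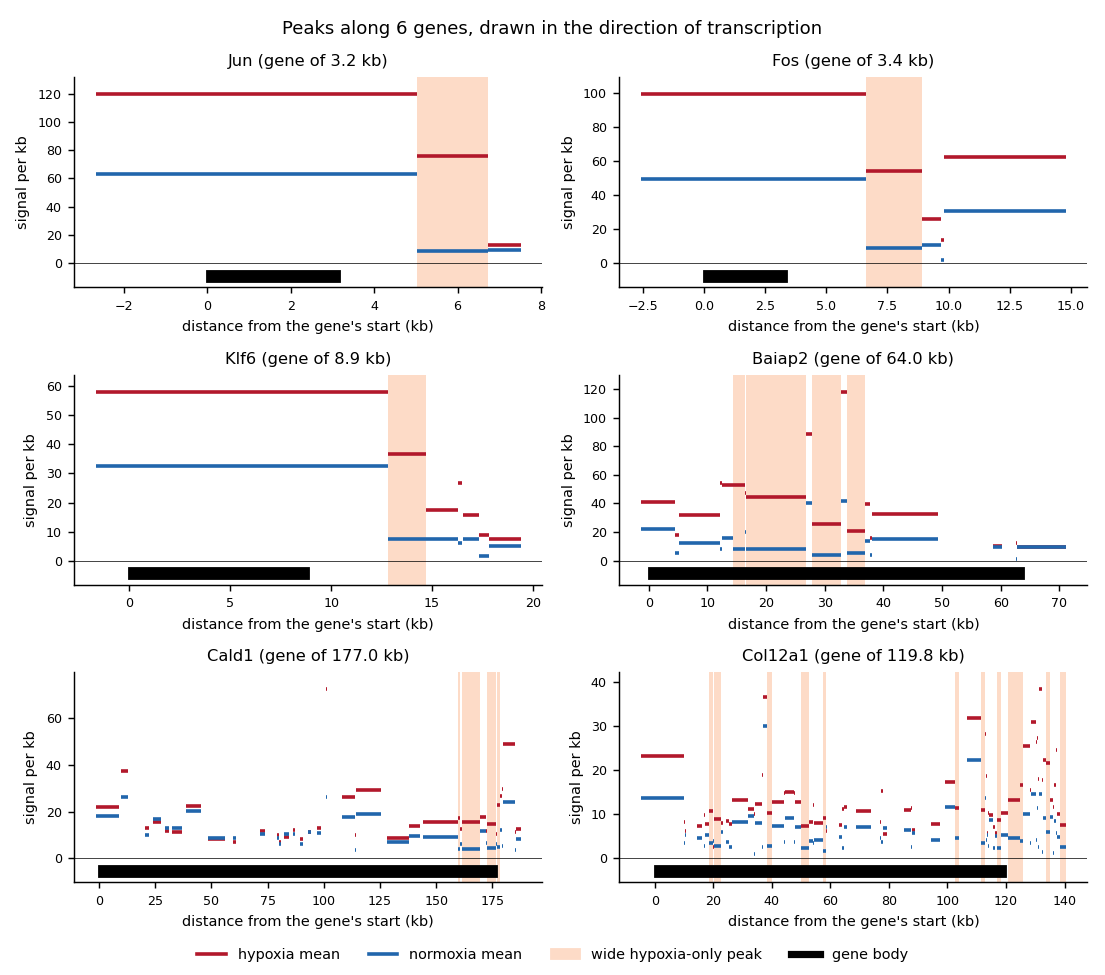
Peaks along Jun, Fos, Klf6, Baiap2, Cald1 and Col12a1, as distance from the gene's start in the direction of transcription (kb) against mean signal per kb (n = 2 libraries) in hypoxia (red) and normoxia (blue); shading marks wide hypoxia-only peaks and black bars the gene. At Jun the shared peak over the gene reads 120 and 63.3 per kb and the shaded peak past its end 75.8 and 8.90.

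A further 28 peaks inside one gene also lay within 10 kb past the end of another. Those given here were named after their values were seen, except the ones past Jund, Junb and Timp3. The densest of the 28, in Rabepk, was 5353 bp past the end of Hspa5, which encodes the endoplasmic reticulum chaperone BiP. It was at 75.4 and 74.1 in hypoxia, against 14.2 and 21.7 in normoxia. The peak in Iqcn lay 6334 bp past Jund (38.2 and 36.0 against 7.87 and 6.67), that in Prdx2 lay 2334 bp past Junb (21.6 and 14.96 against 4.50 and 4.00), and that in Smu1 lay 1551 bp past Dnaja1, an HSP40 co-chaperone gene (76.1 and 79.6 against 18.4 and 22.7). A peak in the gene model Gm49321 lay 1470 bp past Hif1a, the oxygen-regulated subunit of HIF-1 (17.3 and 20.1 against 5.62 and 4.00). Its chain held another wide hypoxia-only peak in Gm49321, and the 2 together were at 28.3 and 35.4 against 8.62 and 8.34. A peak in Syn3 lay 4494 bp past Timp3, a matrix metalloproteinase inhibitor gene nested in Syn3 (31.1 and 36.7 against 8.25 and 7.68). The signal cannot be assigned to either gene of such a pair.

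The 206 peaks inside genes belonged to 147 genes, and these were long. Their median length was 86525 bp against 17403 bp for all coding genes, and 69 of them (46.9%) exceeded 100 kb against 11.4% of coding genes. A longer gene offers more room for a peak, and this was not corrected for. With each gene cut into 3 equal parts from start to end, 59 midpoints lay in the first part, 62 in the middle and 85 in the last. An exon of the host gene was overlapped by 79 of them and 127 were intronic throughout.

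Baiap2, which encodes the actin regulator IRSp53, held the widest peak of all and the densest inside a gene. Its 4 wide hypoxia-only peaks of 2100, 10300, 5000 and 3100 bp, separated by shared peaks of 100 to 1000 bp, covered 20500 bp of 1 chain of 50600 bp. The 10300 bp peak was at 464 and 456 in hypoxia, against 73.5 and 88.8 in normoxia. Along the gene the 4 peaks read 52.8, 44.6, 25.3 and 21.0 per kb in hypoxia and 8.41, 7.88, 4.31 and 5.11 in normoxia, while the narrow shared peaks between them reached 118 and 41.5. In each of the 4 both normoxia libraries were below both hypoxia libraries, as in 329 of the 330 selected peaks (59.5% over all peaks).

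Zswim4, a zinc finger SWIM domain gene, had a pair. The 1900 bp peak was at 96.6 and 99.3 in hypoxia, against 17.6 and 17.0 in normoxia, and the 3000 bp peak at 67.6 and 80.2 against 19.1 and 14.7. Emp1, an epithelial membrane protein gene, held a 6000 bp peak at 156 and 157 against 39.4 and 27.4. Cald1, which encodes the actin-binding protein caldesmon, held peaks of 8100 bp (121 and 133 against 32.6 and 27.7) and 4100 bp (59.1 and 62.2 against 19.1 and 15.7). Both lay near the 3′ end of Cald1, and their chain ran on past it. In none of these did the groups overlap, as in 329 of the 330 selected peaks (59.5% over all peaks).

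The remaining peaks among the 25 densest inside genes read 17.4 to 30.7 per kb in hypoxia and 4.69 to 7.12 in normoxia. They included peaks in Coro7 (a coronin), Sned1 (a matrix glycoprotein, with a pair), Ahnak, Nckap5, Tceal9, the models Gm20721 and Gm49342, Kcnab1 (a potassium channel subunit), Pappa (a protease of IGF-binding proteins), Atf3 (a stress-induced AP-1 family factor), Frmd4a and Sh3bgrl. The Ahnak peak lay wholly in exon sequence and was at 27.2 and 30.6 against 6.37 and 6.01. The Atf3 peak (1400 bp) was at 21.6 and 32.0 against 8.995 and 6.01, and a further one past the Atf3 end was at 36.4 and 32.6 against 12.4 and 11.0.

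**Figure D5:**
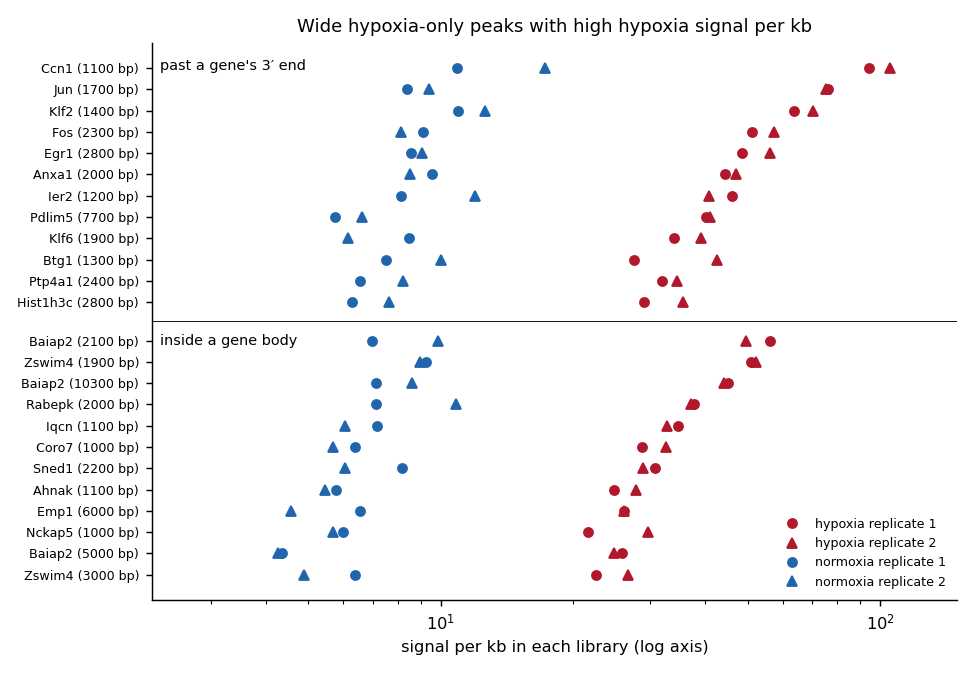
Signal per kb (logarithmic axis) in each of the 4 libraries for 12 wide hypoxia-only peaks past gene ends and 12 inside genes, the densest of those reported here, with circles for replicate 1, triangles for replicate 2, red for hypoxia and blue for normoxia. In every peak drawn, both red points lie to the right of both blue points, as in 329 of the 330 selected peaks (59.5% over all peaks).

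Some genes collected many of these peaks at lower density. Of 234 genes, 186 had 1 peak, 32 had 2 and 8 had 3. Col12a1, which encodes a fibril-associated collagen, had 12 (8 inside, 2 past its end and 2 farther on), spread over 4 chains. Together they covered 22100 bp and summed to 211 and 274 in hypoxia, against 84.7 and 63.1 in normoxia, at 7.30 to 21.7 per kb in hypoxia. Mid1, a microtubule-associated ubiquitin ligase gene on X, had 11 inside (158 and 214 against 50.6 and 56.7). Pdlim5 had 6 (439 and 477 against 81.3 and 84.4), and Ism1, a secreted protein gene, had 6. Mid1 and Ism1 were singled out after their counts were seen.

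Upstream peaks were few. Galk1, the galactokinase gene, had the densest of the 8 (1500 bp, 49.5 and 53.4 against 7.12 and 8.34), and the same peak lay 6062 bp past the end of the histone variant gene H3f3b. The others lay upstream of Stx16, Zbtb33, Hist1h1t (the widest, 1800 bp), Ly6a, Chd1, Las1l and Hist2h3c2, at 6.23 to 20.3 per kb in hypoxia. Ly6a encodes Sca-1, which the sort selected for. Its peak was at 13.1 and 12.2 in hypoxia, against 3.37 and 1.67 in normoxia.

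Of the 31 peaks elsewhere, the densest was at chr19:5812801-5814800, nearest to the coding gene Frmd8. It was at 129 and 129 in hypoxia, against 14.99 and 21.0 in normoxia, or 64.5 per kb in hypoxia, among the 10 densest overall. It belongs to a chain of 66800 bp that spans the long noncoding RNA genes Malat1 and Neat1, and it lay 10908 bp past the end of Neat1, just outside the 10 kb limit. Others were nearest to Pdlim5 (1300 bp, 40.7 and 47.9 against 7.87 and 6.34), Cetn1, Col12a1 (1300 bp, and the widest at 2200 bp) and Arl15. When noncoding genes were placed too, 14 of the 330 remained elsewhere.

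Of 27 AP-1 and immediate-early genes, 10 (37.0%) had a wide hypoxia-only peak in the body or within 10 kb, against 280 of 21924 coding genes (1.28%). They were Fos, Jun, Junb, Jund, Atf3, Egr1, Ier2, Klf2, Klf6 and Nr4a2, an orphan nuclear receptor gene (14.9 and 14.96 against 4.87 and 4.67). Of 31 actin cytoskeleton and adhesion genes, 8 had one, among them Ccn1, Baiap2, Ahnak, Amotl2, the filamin gene Flnc, the lamin gene Lmna and the plectin gene Plec. The Lmna peak past its end was at 72.2 and 73.8 against 14.2 and 13.3, and the widest in Plec at 53.1 and 53.7 against 11.2 and 9.68.

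Of 33 extracellular matrix genes, 8 had one: the collagens Col1a1, Col1a2, Col5a2 and Col12a1, the fibrillin gene Fbn1, the thrombospondin gene Thbs1, the tenascin gene Tnc and Timp3. The Col1a2 peak, 5306 bp past its end, was at 23.4 and 32.3 against 5.62 and 7.34, and the wider of the peaks past Col5a2 at 44.6 and 45.6 against 11.2 and 11.7. The peak near Col1a1 was assigned to the neighbouring Sgca. On each of the other lists 0 or 1 gene had a peak, and at 1.28% of all coding genes lists this short hold too few genes for such a count to be read as high or low. Of 28 hypoxia response genes, a list without Hif1a, Bhlhe40, a circadian and HIF-induced repressor, had a peak (54.5 and 48.6 against 17.6 and 8.68). Of 10 chondrogenic genes Trps1 did (41.8 and 40.5 against 13.5 and 9.01), and of 15 MSC markers Ly6a did. None of 16 osteogenic, 14 adipogenic, 13 blood and 8 endothelial genes did. The osteogenic list did not hold Col1a1 or Col1a2, which are counted above with the matrix genes. The lists were chosen with earlier results known and long or strongly open genes are not matched, so the shares are descriptions.

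Peaks at the width limit had similar median signal, given here per peak. The highest hypoxia value was 30.7 at 1000 bp but 165 at 900 bp, which per kb is above any of the 330 peaks. The 72 peaks of exactly 1000 bp had a median of 10.1 in hypoxia and 2.65 in normoxia, and the 116 excluded peaks of 900 bp a median of 9.08 and 2.39. They differed in place, with 26.4% past gene ends at 1000 bp and 10.3% at 900 bp.

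Most promoter peaks of the same genes were assigned to both groups and played no part in the rule. A total of 210 promoter peaks (within 1 kb of a start site, neither a wide hypoxia-only peak nor touching one) lay at 123 of the 147 genes with such a peak inside. By limma with RLE factors and an FDR under 0.01, 61 (29.0%) were lower in normoxia and 1 was higher, against 16.7% lower and 0.442% higher over all 17661 promoter peaks. The median change was -0.37 on the log2(value + 1) scale, against -0.27 over all promoter peaks. At genes with a peak past their end, 33 of 80 promoter peaks (41.3%) were lower and 0 higher (0 at an unadjusted p under 0.05), with a median of -0.42. However, 25 of the 210 (4 of the 61 calls) and 6 of the 80 (1 of the 33) were themselves hypoxia-only peaks, assigned by the contrast that the rule used. Of the promoter peaks assigned to both groups, 57 of 185 (30.8%) and 32 of 74 (43.2%) were lower, against 17.0% of 16487 over all genes. These promoters were stronger than most, with median hypoxia signals of 116 and 215 against 78.0 over all, and stronger promoters were called more often everywhere. Among promoter peaks with a mean value of 100 to 200, 40.8% of those at genes with an inside peak, 40% at genes with a peak past the end and 31.1% of all were called lower. At 200 to 400 the shares were 52.6%, 58.6% and 53.0%, so that genes with an inside peak showed no excess there. In the remaining ranges both sets stood above all promoters. The shares were 7.5% (6 of 80), 5.88% (1 of 17) and 2.91% up to 50. At 50 to 100 they were 15.6% (5 of 32), 16.7% (1 of 6) and 12.1%. For genes with a peak past the end each of these shares thus rests on 1 call. Above 400 they were 90.9%, 75% and 66.8%, on only 11 and 8 peaks of the 2 sets. With cyclic loess, which centres the change at each signal level, 8 of 210 and 2 of 80 were lower and 4 and 4 were higher, so the direction of many single promoters depends on the scaling. Without hypoxia replicate 1 or 2 limma called 0 of either set lower, while 87 and 90 of 210, and 44 and 49 of 80, had an unadjusted p under 0.05 in that direction. Within ranges of strength the shares at these genes were mostly higher, but several rest on few peaks or calls and this was not tested. The ranges also include the promoter peaks that were themselves hypoxia-only. A difference between these genes and others was not fully separated from promoter strength.

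Among the named genes, the promoter peaks of Emp1 and Nr4a2 had the lowest FDR of those assigned to both groups. The Emp1 promoter peak was at 913 and 961 in hypoxia, against 391 and 433 in normoxia, a change of -0.71 ± 0.08 (SE) with RLE factors (limma FDR 8.5e-07). The Nr4a2 promoter peak was at 416 and 471 against 164 and 204, a change of -0.79 ± 0.10 (SE, limma FDR 4.1e-06). With cyclic loess the Nr4a2 change was -0.37 (limma FDR 0.0046) and that of Emp1 -0.17 (limma FDR 0.12), which missed the threshold. Lbh (310 and 312 against 130 and 165, -0.61, limma FDR 0.00035) was also called lower, but at equal totals over peaks it missed the threshold (limma FDR 0.020). A 600 bp hypoxia-only peak just after the start of Egr1 changed by -2.30 (89.2 and 79.9 against 13.1 and 10.3, limma FDR 1.2e-09), but hypoxia-only peaks were assigned by the same contrast. Not all hosts followed. The Col12a1 promoter peak (343 and 346 against 197 and 206) missed the threshold at a limma FDR of 0.043, that of Pdlim5 (383 and 399 against 251 and 269) had an FDR of 0.48, and the upstream Cald1 promoter peak (219 and 230 against 195 and 178) was at 0.21 with RLE factors with an FDR of 0.21. The promoter peak called higher lay at an internal start of Mid1 (134 and 148 in hypoxia, 146 and 146 in normoxia, 0.53 with RLE factors, limma FDR 0.0025). As deposited its change was 0.05, so this call depends on the scaling.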

How the data were processed

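ATAC-seq was analysed in 4 libraries, 2 per oxygen level. The authors aligned reads to mm10 with Bowtie2, removed duplicates with Picard and called 1 peak set with chromstaR in differential mode. The deposited values, called RPKM by the authors, are a signal per peak and library that was not divided by width. Multiplied by a library total they gave whole reads for 100% of values in each library (tolerance 0.01 reads), from which depth was taken. The sources do not say whether a read here is a fragment or one of its ends, so no counting interval is given.

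The members and gene lists were chosen with earlier results of these data known. Peaks were placed by midpoint on protein-coding genes of GENCODE M21. Where several genes span a midpoint, the host is the one with the nearest start site. Changes are normoxia against hypoxia on the log2(value + 1) scale. Calls used limma 3.58.1 (lmFit, eBayes with trend and robust) in R 4.3.3 after RLE size factors, two-sided, Benjamini-Hochberg over 128055 peaks, FDR under 0.01. The study used edgeR on its scaled values. Here edgeR 4.0.16 and DESeq2 1.42.0 on recovered reads were alternatives. The functions were tested on simulated data. Named genes are the 25 densest and 5 widest peaks inside genes, the 6 densest and the widest in each other place, and genes on the lists. The study split the sorted population between the oxygen levels, and the labels do not say whether libraries of the same number share a sort. Deviations of same-numbered libraries had a correlation of 0.011, which with 2 libraries per group cannot decide whether they pair. The main fit used no pairing. Near-identical histone genes may share reads. A few genes that meet the naming rule are not reported here.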

Additional observations from a re-analysis of the deposited data

How the results depend on the processing

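The size of the differences depended on both the scaling and the pseudocount. The median log2 change of the wide hypoxia-only peaks was -1.67 as deposited, -1.27 with RLE factors, -1.01 at equal totals over peaks, -1.92 and -1.13 with pseudocounts of 0.1 and 5, and -1.83 at the lowest and -1.60 at the highest when single libraries were left out. For the touching shared peaks it was -0.69, -0.25 with RLE factors, -0.53 with a pseudocount of 5, -0.77 with a minimum mean value of 5, -0.79 with totals without mitochondrial peaks, and 0.0094, the opposite sign, at equal totals. Width minimums of 1500 and 2000 bp left 126 and 63 peaks. With a flank of 5 kb, 52 were past ends and 66 elsewhere, and with 50 kb 15 were upstream and 20 elsewhere. With genes of all types 14 were elsewhere. Upstream peaks numbered 5 when any overlap counted as inside and, in an alternative added after seeing the data, 5 when a gene end counted before a gene body.

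Of the wide hypoxia-only peaks, 174 were called lower by limma, 318 as deposited, 90 at equal totals, 273 at an FDR under 0.05 and 12 by DESeq2, which left 318 without an adjusted p. The 61 promoter peaks of genes holding one became 145, 16 and 96 under the first 3 of these settings and 8 with cyclic loess, and the 1 called higher became 0, 4, 2 and 4. The 33 promoter peaks of genes with one past their end became 65 as deposited, 9 at equal totals and 2 with cyclic loess. Without single libraries the ranges were 0 to 180, 0 to 79, 0 to 1 and 0 to 37. The 0 came without hypoxia replicate 1 and without hypoxia replicate 2, where the lone library is assumed to vary like the normoxia group, limma called 0 of 128055 peaks and 24119 and 24294 had an unadjusted p under 0.05. The cause was not tested. With cyclic loess single promoter changes turned sign, to 0.060 for Sned1, 0.070 for Plec, 0.018 for Egr1, 0.13 for Ahnak and 0.046 for Lmna.

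With the replicate block, 231 wide hypoxia-only peaks, 73 and 36 promoter peaks were called lower and 1 higher. Whether libraries of the same number share a sort is not given in the labels, so the block may only share a number. Depth limits the weaker peaks, with medians of 12 and 12.5 reads in normoxia.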

Other observations

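Wide hypoxia-only peaks were frequent on the X chromosome, which in these male mice is present once. X held 36 of the 330 (10.9%), against 2.76% of all peaks, in or beside 23 genes, and 11 of the 36 lay inside Mid1. Their hypoxia signal was low to moderate, at 4.50 to 24.3 per kb with a median of 10.2, and their median log2 change was -1.62. The densest on X was in Tceal9, a gene of the transcription elongation factor A-like family, at 31.5 and 26.9 in hypoxia, against 5.62 and 6.67 in normoxia. These shares are descriptions with no test.

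Histone genes, which make the proteins that package DNA and mostly lie in clusters, had 6 of the peaks in their bodies or flanks (chosen after their values were seen), at 6.23 to 34.3 per kb in hypoxia. The strongest of the clustered genes was Hist1h3c, with a 2800 bp peak 1073 bp past its end at 81.4 and 99.6 in hypoxia, against 17.6 and 21.4 in normoxia. The peak past H3f3b, a variant made outside the cell cycle's DNA replication phase too, was denser at 34.3 per kb.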
